A study of Homo sapiens with 4 samples.

Results

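The genes described here are 35 mitotic cyclins, kinases, checkpoint, kinetochore and spindle genes, chosen by symbol, of 58735 genes with a deposited value. All 35 symbols matched a gene ID in GENCODE release 29. 34 passed the filter of a mean of at least 1 FPKM (fragments per kilobase of exon and per unit of library depth) over the libraries, and PRC1 did not. As background, mitosis is driven by CDK1 bound to cyclins A and B, is held by the spindle checkpoint until every chromosome is attached to the spindle, and ends when the anaphase-promoting complex (APC/C) marks cyclin B and securin for degradation. Transcripts of these proteins accumulate late in the cell cycle. They are controlled by MuvB complexes, which repress with E2F4 and RB-like proteins (DREAM) and activate with MYBL2 and FOXM1.

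RNA-seq had been run on 4 libraries: shNME7 1 and 2, from cells with a short hairpin RNA against NME7, and shCtrl 1 and 2, from cells with a control hairpin. NME7 encodes a nucleoside diphosphate kinase family protein found at the gamma-tubulin ring complex, the microtubule nucleator of centrosomes and spindle poles. The labels name all 4 as Huh7, an established human hepatoma line, and do not say whether replicates were separate cultures, so the p-values measure the spread between these libraries, which may be technical. The sources used here give neither the hairpin sequences nor the time after transduction, nor whether the cells were a clone or a pool.

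The libraries held 14877906 to 16991397 recovered fragments. The targeted gene stood at 0.835 and 0.626 FPKM in shNME7 1 and 2, against 3.64 and 3.93 FPKM in shCtrl 1 and 2, with no overlap. Its log2 difference was -1.47 (SE 0.17, limma-trend adjusted p 0.310) and -2.39 in limma-voom (adjusted p 0.000998), so with all 4 libraries and no block it passed in limma-voom and not in limma-trend. The defining liver cancer markers of the label were absent: 8 of 8 hepatocyte marker genes, ALB, AFP, APOA1, APOB, TTR, FGB, SERPINA1 and TF, had at most 2 fragments in any library, below the 3 that a count of 0 allows. Of 5 fibroblast genes, COL3A1 stood at 75.1 and 76.6 FPKM in shNME7 1 and 2 and at 75.8 and 66.9 FPKM in shCtrl 1 and 2, while PDGFRB lay between 1.24 and 1.77 FPKM and DCN had 6 to 16 fragments per library. The list was thus not uniformly high. LUM stood at 13.9 and 9.88 FPKM in shNME7, against 14.1 and 14.5 FPKM in shCtrl, and COL1A1 at 8.44 and 9.05 FPKM in shNME7, against 10.8 and 9.21 FPKM in shCtrl, both with the shNME7 libraries below. Both shNME7 libraries were below for 18.4% of all tested genes, and for LUM and COL1A1 the nearest libraries of the groups were almost level. The summed fibroblast markers were 98.7 and 97.3 FPKM in shNME7 and 103 and 92.1 FPKM in shCtrl, so the sums overlapped. Of 4 endothelial genes, KDR was listed at 0 and VWF had at most 4 fragments. The summed endothelial markers were 2.81 and 3.47 FPKM in shNME7, against 2.29 and 1.94 FPKM in shCtrl. CDH5 and PECAM1 were each higher in both shNME7 libraries, as were 17.8% of all tested genes. The part of any of these markers in the results was not tested. Of 5 leukocyte genes the highest count was 8 fragments. The libraries are therefore called by their labels only, and what the cells are was not tested.

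The members share promoter elements that the choice by symbol did not use. Sequences came from RefSeq windows on GRCh38.p14, 300 bases each, that run from 250 bases before to 50 after a gene's start, and the first start listed was taken for each gene. A window was found for 29 of the 35 members; AURKA, BIRC5, BUB3, TPX2, TTK and UBE2C had none. The cell cycle genes homology region (CHR), searched as TTTGAA on both strands, is the element that MuvB complexes bind, and occurred in 20 of 29 members (69.0%), against 12.1% of 15842 protein-coding genes. The CCAAT box, the site of the factor NF-Y, occurred on either strand in 22 of 29 members (75.9%), against 36.4% of protein-coding genes. 17 members held both elements (58.6%, against 5.02%). Between 60 bases before and 30 after the start, 15 of 29 members had a CHR element (51.7%), against 3.07%. These shares describe letters in a window and show no binding. Variants of the TTTGAA letters were not searched, so a gene without a match may still hold such a variant. Any other start of a gene was not searched either. A gene without a match may thus hold an element near a different start, and the counts depend on the start taken.

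The stretches below, 130 bases before the start to 20 after, show a CHR element downstream of at least a single CCAAT box in a cyclin, a kinase and a kinesin gene, a CHR element between CCAAT boxes in CDC20, CHR elements in MKI67 of which the downstream one shares a base with a CCAAT box, and CCAAT boxes with no TTTGAA in CCNB1. Capitals mark both elements and their reverse complements. The genes were chosen to show these arrangements and to include members from the higher end (CDC20), the middle (CCNB1, CCNB2) and the lower end (MKI67, KIF23) of the differences given further on. The stretches lie at chr15:59105016-59105165 (CCNB2, plus strand), chr16:23678759-23678908 (PLK1, plus), chr15:69414219-69414368 (KIF23, plus), chr1:43358851-43359000 (CDC20, plus), chr10:128126404-128126553 (MKI67, minus) and chr5:69167020-69167169 (CCNB1, plus).
CCNB2: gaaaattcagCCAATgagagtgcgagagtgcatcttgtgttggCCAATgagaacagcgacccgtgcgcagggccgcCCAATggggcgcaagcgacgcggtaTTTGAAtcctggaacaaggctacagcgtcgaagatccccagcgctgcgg
PLK1: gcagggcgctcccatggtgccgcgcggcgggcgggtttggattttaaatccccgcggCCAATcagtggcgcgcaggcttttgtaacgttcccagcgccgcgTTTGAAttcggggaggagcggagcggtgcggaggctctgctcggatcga
KIF23: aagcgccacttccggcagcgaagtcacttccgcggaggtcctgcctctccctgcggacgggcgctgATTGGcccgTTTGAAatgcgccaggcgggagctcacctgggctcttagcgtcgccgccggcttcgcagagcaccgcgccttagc
CDC20: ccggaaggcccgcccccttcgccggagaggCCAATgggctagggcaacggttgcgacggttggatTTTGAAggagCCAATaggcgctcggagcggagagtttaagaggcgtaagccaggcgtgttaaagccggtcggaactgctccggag
MKI67: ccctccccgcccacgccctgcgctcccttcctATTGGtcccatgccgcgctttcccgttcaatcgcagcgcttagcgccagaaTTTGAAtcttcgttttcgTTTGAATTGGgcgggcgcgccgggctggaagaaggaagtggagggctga
CCNB1: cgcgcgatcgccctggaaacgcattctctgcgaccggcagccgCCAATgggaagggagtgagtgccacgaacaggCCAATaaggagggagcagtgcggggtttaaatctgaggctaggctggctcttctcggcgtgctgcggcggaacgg

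**Figure D1:**
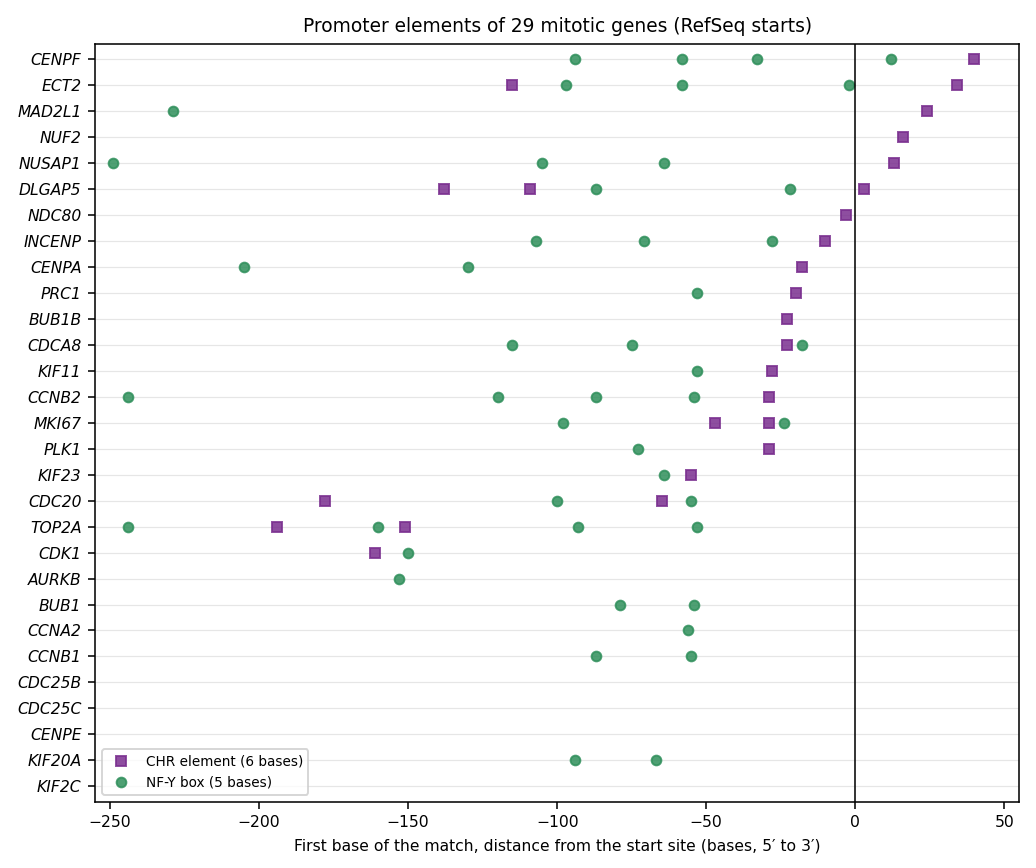
Positions of CHR elements (squares) and NF-Y boxes, that is CCAAT boxes (circles), in the promoter windows of 29 mitotic genes, as the distance in bases of a match's first base from the start site (black line). 15 genes have a CHR element between 60 bases before and 30 after the start, and CDC25B, CDC25C, CENPE and KIF2C have no match of either kind in the window of the first listed start.

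The mitotic genes stood at similar levels in both groups, and none passed the test. Of the 34 tested members, 16 had a higher and 18 a lower mean in shNME7, with 9 higher and 25 lower when each library was rescaled to the same sum (TPM), where the share of all tested genes with a higher mean was 44.2% in place of 52.2%. The log2 differences ran from -0.36 (TPX2) to 0.27 (UBE2C), with a median of -0.01 over members and 0.01 over all 12866 tested genes. The median size of the difference, regardless of sign, was 0.09 over members and 0.14 over all tested genes. By less than 0.2 differed 29 of 34 members (85.3%), against 65.0% of all tested genes. The members had a median level of 27.5 FPKM, and the tested genes compared with them were not matched for level. Whether the smaller differences of the members went with their level was not tested. Fewer dividing cells and less mitotic RNA per dividing cell cannot be told apart in bulk RNA.

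Differences were tested with limma-trend on log2(FPKM + 1), shNME7 minus shCtrl, with Benjamini-Hochberg adjustment over all tested genes and a threshold of 0.05; fold changes on this scale understate those of low genes. limma-trend called 0 of 34 members, with a smallest adjusted p of 0.778, against 0.0% of all genes. At an unadjusted p under 0.05 it counted 0 members, against 6.68% of all genes. limma-voom on recovered fragments called 0 of 35 members, against 0.106% of all genes, with 1 member, TPX2, at an unadjusted p under 0.05 (7.92% of all genes). The groups did not overlap for 7 of 34 members (36.2% of all genes), 4 with both shNME7 libraries above and 3 with both below, against 17.8% and 18.4% of all genes in these directions. An exact permutation test of 2 libraries against 2 cannot go below a two-sided p of 0.333.

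The intervals show how large a difference these libraries leave room for. The standard error of a member's log2 difference lay between 0.13 and 0.19, and the 95% intervals of limma-trend, not adjusted for the number of genes, included 0 for all 34 tested members. They lay within -0.5 and 0.5 for 17 members and within -1 and 1 for all 34, the lowest bound being -0.76 (TPX2, a fold of 0.592) and the highest 0.64 (CDC20, a fold of 1.56). Each tested member rested on 244 to 11983 fragments per library.

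**Figure D2:**
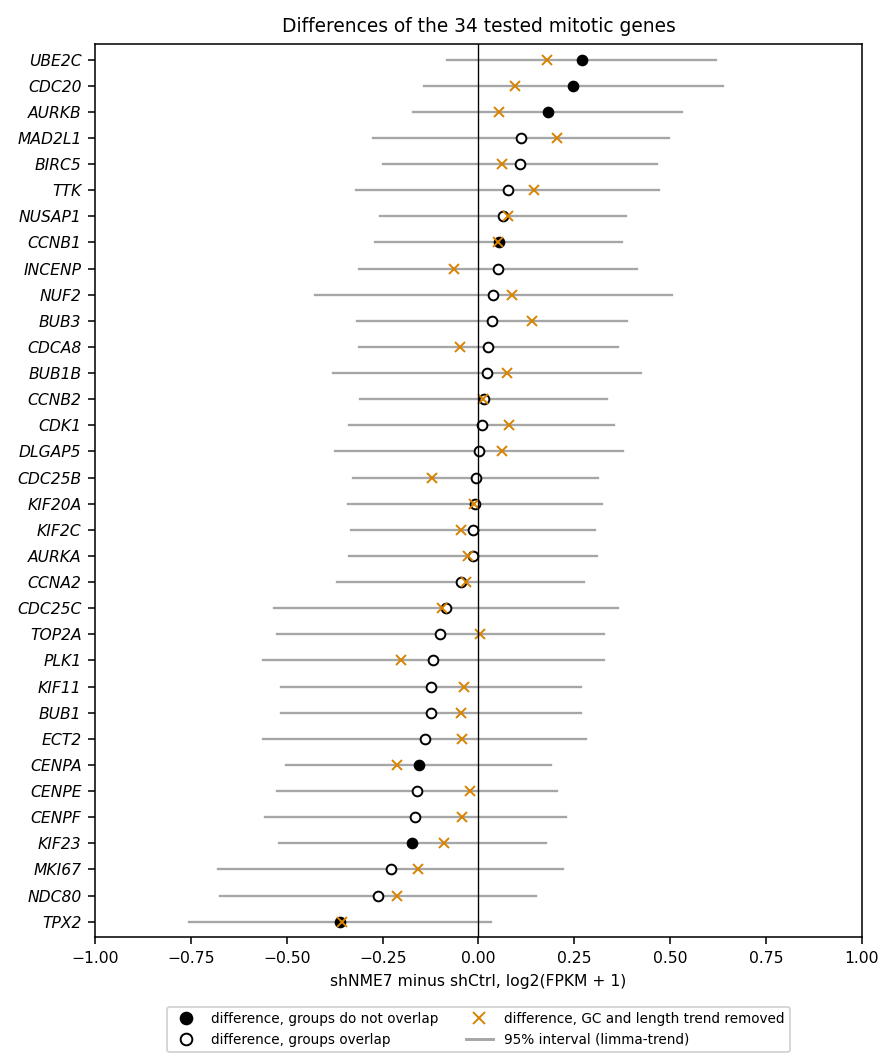
Log2 difference, shNME7 minus shCtrl on log2(FPKM + 1), for each of the 34 tested mitotic genes (circles, filled where the groups do not overlap), with the 95% interval of limma-trend (grey bars; 2 libraries per group) and the difference after removal of a GC and length trend (crosses). Every interval includes 0, from TPX2 at -0.36 to UBE2C at 0.27.

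Among the cyclins and their kinase, differences lay between -0.05 and 0.05. CDK1, the kinase that starts mitosis, stood at 40.9 and 35.3 FPKM in shNME7 1 and 2, against 37.8 FPKM in both shCtrl libraries. Its difference was 0.01 (SE 0.14, limma-trend adjusted p 0.993), and the shNME7 libraries lay on either side of the shCtrl libraries. CCNB1, the main mitotic cyclin, stood at 61.9 and 60.6 FPKM in shNME7, against 58.0 and 60.1 FPKM in shCtrl, with a difference of 0.05 (SE 0.13, limma-trend adjusted p 0.936). Both shNME7 libraries were above both shCtrl libraries, though shNME7 2 and shCtrl 2 were almost level. CCNB2, the second B-type cyclin, stood at 39.3 and 38.0 FPKM in shNME7 and 37.0 and 39.5 FPKM in shCtrl. CCNA2, the S and G2 phase cyclin that also acts in early mitosis, stood at 32.5 and 33.6 FPKM in shNME7 and 33.0 and 35.3 FPKM in shCtrl. The groups overlapped for both genes, whose differences were 0.01 and -0.05.

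The phosphatases that remove the inhibitory phosphates from CDK1 differed in level more than in response. CDC25B stood at 43.5 and 45.5 FPKM in shNME7 and 44.6 and 44.8 FPKM in shCtrl, a difference of -0.01 (SE 0.13). CDC25C, which acts at mitotic entry, stood at 6.24 and 4.30 FPKM in shNME7 and 5.31 and 5.85 FPKM in shCtrl, a difference of -0.09 (SE 0.19). The shNME7 libraries were the highest and the lowest of the 4 for each of these genes.

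The APC/C activator CDC20 (chromosome 1, 43358955 to 43363203 on the plus strand of GRCh38) and the ubiquitin-conjugating enzyme of the complex, UBE2C (chromosome 20, 45812576 to 45816957, plus strand), had the largest positive differences of the 34. UBE2C stood at 48.1 and 46.1 FPKM in shNME7, against 42.0 and 36.0 FPKM in shCtrl. CDC20 stood at 59.6 and 71.7 FPKM in shNME7, against 58.8 and 51.2 FPKM in shCtrl. For each gene the lower shNME7 library exceeded the higher shCtrl library, but for CDC20 the nearest libraries of the groups, shNME7 1 and shCtrl 1, were almost level. The difference was 0.27 (SE 0.15, limma-trend adjusted p 0.795) for UBE2C and 0.25 (SE 0.16, limma-trend adjusted p 0.819) for CDC20, and neither passed. With a loess trend on GC content and length removed from each library these became 0.18 and 0.09.

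Of the kinases, AURKB, the catalytic subunit of the chromosomal passenger complex, stood at 38.1 and 37.6 FPKM in shNME7, against 36.0 and 30.7 FPKM in shCtrl. Its difference of 0.18 (SE 0.14, limma-trend adjusted p 0.836) did not pass, and it was 0.05 with the GC and length trend removed. AURKA, which matures centrosomes and builds the spindle poles, stood at 40.4 and 37.8 FPKM in shNME7 and 39.0 and 40.0 FPKM in shCtrl. PLK1, a kinase of mitotic entry, centrosomes and kinetochores, stood at 22.2 and 28.4 FPKM in shNME7 and 30.6 and 24.4 FPKM in shCtrl. For PLK1 the replicates of each group lay far apart and the groups overlapped, and the difference of -0.12 had an SE of 0.18. With the GC and length trend removed the PLK1 difference was -0.20 and did not pass. The other passenger subunits overlapped between the groups: BIRC5 (survivin) stood at 38.4 and 40.8 FPKM in shNME7 and 39.7 and 33.7 FPKM in shCtrl, CDCA8 (borealin) at 21.0 and 23.5 FPKM and 20.9 and 22.7 FPKM in the same groups, and the scaffold INCENP at 13.7 and 15.5 FPKM and 15.2 and 13.0 FPKM. The differences were 0.11 for BIRC5, 0.03 for CDCA8 and 0.05 for INCENP. With the GC and length trend removed, CDCA8 turned to -0.05 and INCENP to -0.06, and under TPM scaling CDCA8 turned to -0.02.

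The spindle checkpoint genes also overlapped between the groups, all 5 of them, while 36.2% of all genes did not overlap. MAD2L1, which inhibits CDC20 at unattached kinetochores, stood at 17.8 and 14.5 FPKM in shNME7 and 13.8 and 15.9 FPKM in shCtrl. The checkpoint kinase gene BUB1 stood at 19.4 and 16.1 FPKM in shNME7 and 17.7 and 21.1 FPKM in shCtrl, and TTK, the kinase upstream of it, at 14.9 and 11.6 FPKM and at 11.8 and 13.1 FPKM. The differences were 0.11 for MAD2L1, -0.12 for BUB1 and 0.08 for TTK, each with an SE of 0.16. BUB1B (BUBR1) and BUB3, which join MAD2L1 and CDC20 in the mitotic checkpoint complex, differed by 0.02 and 0.04, or by -0.03 and -0.01 under TPM scaling. With the GC and length trend removed, MAD2L1 differed by 0.20, TTK by 0.15, BUB3 by 0.14, BUB1B by 0.07 and BUB1 by -0.05. None of these passed.

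At the kinetochore, 4 of 5 members averaged lower in shNME7, while 52.2% of all tested genes averaged higher. Under TPM scaling NUF2, the exception, turned to -0.01. NDC80, the microtubule-binding subunit, stood at 13.0 and 10.2 FPKM in shNME7, against 12.9 and 15.3 FPKM in shCtrl. Its difference of -0.26 (SE 0.17, limma-trend adjusted p 0.819) did not pass, and shNME7 1 lay between the shCtrl libraries. NUF2, its partner in the same complex, stood at 19.7 and 13.5 FPKM in shNME7 and 15.9 and 15.8 FPKM in shCtrl, with a difference of 0.04 (SE 0.19). CENPA, the centromeric histone H3 variant, stood at 16.5 and 17.7 FPKM in shNME7, against 20.6 and 17.8 FPKM in shCtrl. Its groups did not overlap, the only such case of the 5, against 36.2% of all genes. The gap between its nearest libraries was small beside the distance between the shCtrl replicates, and its difference of -0.16 (SE 0.14, limma-trend adjusted p 0.839) did not pass. With the GC and length trend removed the CENPA difference was -0.21 and did not pass either. The kinetochore motor gene CENPE stood at 5.68 and 4.71 FPKM in shNME7 and 5.57 and 6.25 FPKM in shCtrl, and CENPF, a large kinetochore and nuclear matrix protein gene, at 28.3 and 24.5 FPKM and at 26.8 and 32.8 FPKM. Both differed by -0.16 or -0.17 and by -0.02 and -0.04 with the GC and length trend removed.

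All 4 kinesin genes had a lower mean in shNME7, while 52.2% of all tested genes had a higher one. For 1 of 4 the groups did not overlap, with both shNME7 libraries below, against 18.4% of all genes. KIF23, the motor of the central spindle, stood at 13.8 and 12.3 FPKM in shNME7, against 13.9 and 15.8 FPKM in shCtrl, a difference of -0.17 (SE 0.14, limma-trend adjusted p 0.837) that did not pass. shNME7 1 and shCtrl 1 were almost level for this gene. KIF11, which pushes the spindle poles apart, stood at 30.6 and 27.0 FPKM in shNME7 and 28.2 and 34.9 FPKM in shCtrl, a difference of -0.12. KIF2C, which depolymerises microtubules at centromeres, stood at 35.7 FPKM in both shNME7 libraries and at 36.9 and 35.2 FPKM in shCtrl. It differed by -0.01, as did KIF20A, a motor of cytokinesis. Under TPM scaling the 4 signs did not turn. Without shCtrl 2, KIF11 and KIF20A differed by 0.03 and 0.06, without shNME7 1 KIF20A by 0.02, and without shCtrl 1 KIF2C by 0.02; KIF20A also turned to 0.00 when limma-voom was run after removal of the trend.

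The largest difference of the 34 was that of TPX2 (ENSG00000088325, chromosome 20, 31739271 to 31801805 on the plus strand of GRCh38), the spindle assembly factor that binds and activates AURKA. TPX2 stood at 59.8 and 48.2 FPKM in shNME7, against 65.8 and 72.9 FPKM in shCtrl. The higher shNME7 library stayed under the lower shCtrl library, and the means were 54.0 ± 8.19 FPKM in shNME7 and 69.3 ± 4.96 FPKM in shCtrl (SD, n = 2 each), a ratio of 0.778. The difference was -0.36 (SE 0.16, 95% interval -0.76 to 0.03), and it did not pass (limma-trend adjusted p 0.778, limma-voom adjusted p 0.609). It was -0.36 with the GC and length trend removed, -0.21 without shNME7 2 and -0.51 without shNME7 1. It was negative under each of 13 alternatives, several of which could not turn it. A replicate block leaves the difference as it is, and leaving out a library cannot turn the sign where groups do not overlap. The ratio of TPX2 to AURKA within a library was 1.48 and 1.27 in shNME7, against 1.69 and 1.82 in shCtrl; this ratio was chosen after its values were seen.

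The other spindle and cytokinesis genes lay closer to 0. ECT2, the exchange factor that activates RhoA at the cleavage site, stood at 34.4 and 28.2 FPKM in shNME7 and 30.9 and 38.4 FPKM in shCtrl, a difference of -0.14 (SE 0.17). NUSAP1, a microtubule-bundling protein gene, stood at 7.78 and 7.56 FPKM in shNME7 and 7.02 and 7.57 FPKM in shCtrl, and DLGAP5 (HURP), which stabilises kinetochore fibres, differed by 0.00, or by -0.05 under TPM scaling. PRC1, the antiparallel microtubule bundler of the central spindle, was listed at 0.686 and 1.15 FPKM in shNME7 and 0.705 and 0.662 FPKM in shCtrl, with 57 and 108 fragments in shNME7 and 62 and 59 in shCtrl (limma-voom difference 0.39, adjusted p 0.790). Of PRC1's exon bases 57.6% also lie in exons of AC068831.7 on the same strand, a gene with 217 and 235 fragments in shNME7 and 217 and 213 in shCtrl, and of NUSAP1's 62.2% lie in exons of AC087721.2, which was listed at 0. How the authors counted shared bases is not given in the sources used here, so the levels of PRC1 and NUSAP1 are uncertain.

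MKI67, the proliferation marker Ki-67 that coats mitotic chromosomes, stood at 17.8 and 20.6 FPKM in shNME7, against 19.3 and 26.4 FPKM in shCtrl. Its difference of -0.23 (SE 0.19, limma-trend adjusted p 0.836) did not pass, and it was -0.01 without shCtrl 2 and -0.45 without shCtrl 1. TOP2A, the topoisomerase that untangles sister chromatids, was the most abundant member at 107 and 88.2 FPKM in shNME7 and 93.6 and 115 FPKM in shCtrl. The groups overlapped, and the difference of -0.10 (SE 0.18) became 0.00 with the GC and length trend removed.

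The order of levels was wide compared with the differences between the groups. TOP2A was the highest member in all 4 libraries, from 88.2 to 115 FPKM. TPX2, CDC20 and CCNB1 followed with means over the 4 libraries of 61.7, 60.3 and 60.1 FPKM and overlapping ranges, so their order is not resolved. At the low end, PRC1 aside, CDC25C and CENPE overlapped, with means of 5.43 and 5.55 FPKM.

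**Figure D3:**
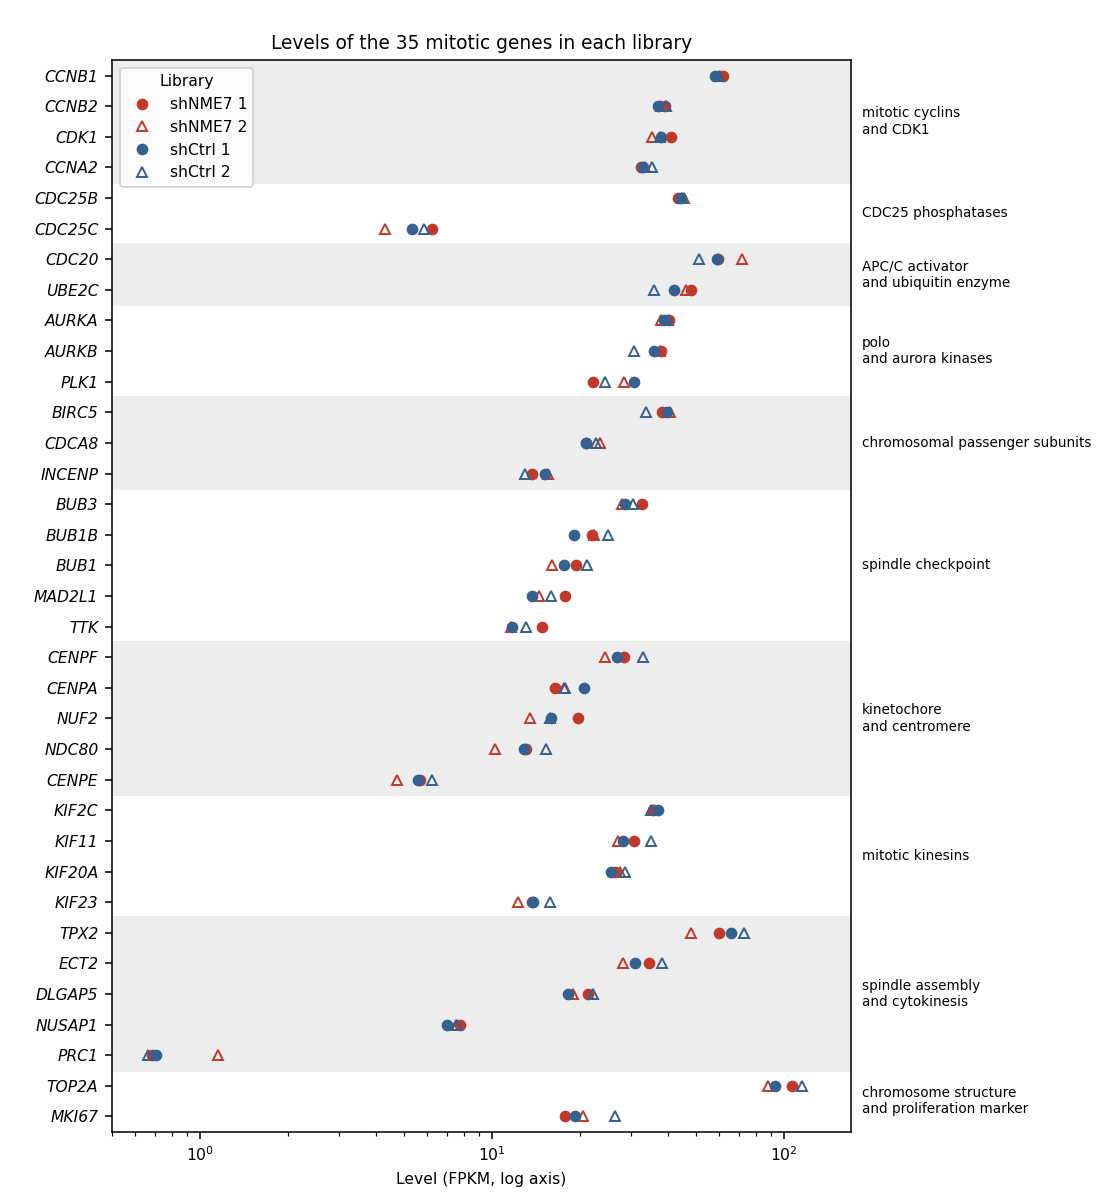
Level of each of the 35 mitotic genes (FPKM, logarithmic axis) in shNME7 1 and 2 (red) and shCtrl 1 and 2 (blue), grouped by role and ordered by mean level within a role. The 4 points of a gene mostly lie close together, while genes range from below 1 FPKM (PRC1) to about 100 (TOP2A).

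The members differed between libraries in a way that ran across the groups. Summed over the 35 genes, the level was 1050 and 997 FPKM in shNME7 1 and 2 and 1011 and 1066 FPKM in shCtrl 1 and 2, with shNME7 2 lowest and shCtrl 2 highest. As a share of each library's summed FPKM, it was 0.355% and 0.345% in shNME7 and 0.357% and 0.379% in shCtrl. On that scale both shNME7 libraries were below, though shNME7 1 and shCtrl 1 were almost level. The share of recovered fragments, 0.461% and 0.424% in shNME7 and 0.438% and 0.485% in shCtrl, overlapped between the groups. shNME7 1 was the highest library for 11 of 34 members and shCtrl 2 for 15, while shNME7 2 was the lowest for 15 and shCtrl 1 for 8. Across the 34 members, the SD of the log2 difference between libraries was 0.20 for shNME7 1 and 2 and 0.19 for shCtrl 1 and 2, against 0.15 (shNME7 2 with shCtrl 1) to 0.26 (shNME7 2 with shCtrl 2) between the groups. Of the 4 pairs between the groups, 3 had a smaller SD than either pair of replicates.

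This spread went with the GC content of the transcripts. The members had a median GC content of 43.2%, against 48.1% for all tested genes, and ranged from 35.3% (CENPE) to 59.6% (INCENP). Over the 34 members, Spearman's rho between GC content and a library's deviation from the mean of all 4 was -0.55 for shNME7 1, 0.74 for shNME7 2, 0.43 for shCtrl 1 and -0.53 for shCtrl 2. Over all tested genes with a GC value, 12857 in number, it was -0.37, 0.66, 0.26 and -0.62 in the same order. Points of a library share its depth and scaling, so these are descriptions; the part of GC content in any difference was not tested. Among the 17 members below the median GC content, shNME7 1 was highest for 7 and shCtrl 2 for 10, and shNME7 2 was lowest for 12. Among the 17 others each library was highest for 3 to 5. With the GC and length trend removed, 15 members had a higher and 19 a lower mean, the median size of a difference was 0.07 in place of 0.09, and again 0 members passed. Some differences shrank, among them CDC20 from 0.25 to 0.09 and CENPE from -0.16 to -0.02. Others grew in size, among them MAD2L1 from 0.11 to 0.20, PLK1 from -0.12 to -0.20 and CDC25B from -0.01 to -0.12.

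**Figure D4:**
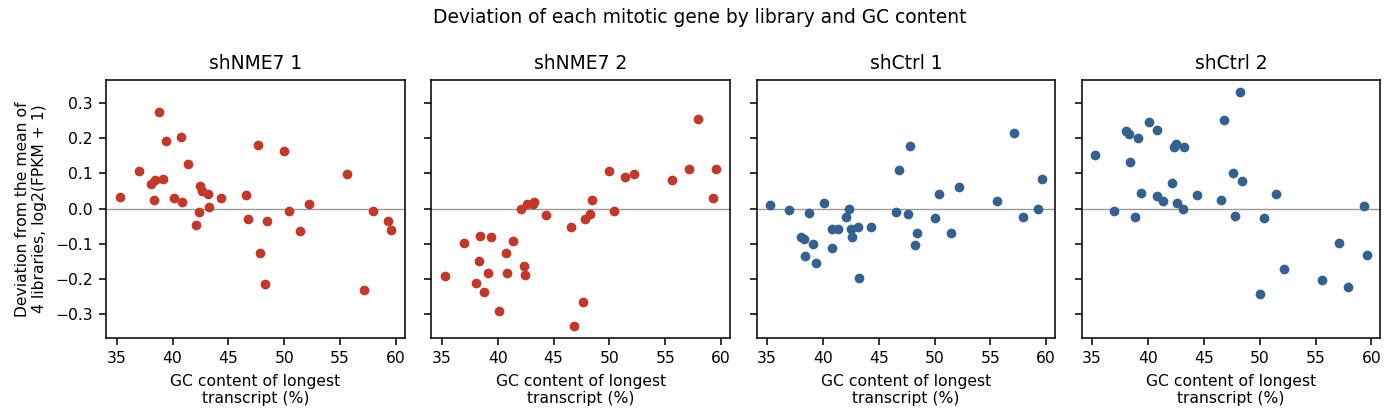
Deviation of each of the 34 tested mitotic genes from its mean over the 4 libraries (log2(FPKM + 1)) against the GC content of its longest transcript (%), 1 panel per library. Of the 17 genes below the median GC content, 15 lie above 0 in shNME7 1 and 14 in shCtrl 2, while 14 lie below 0 in shNME7 2 and 15 in shCtrl 1.

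The other genes of the pathway gave no call either. In 6 further mitotic lists with 115 genes, 114 were tested. limma-trend and limma-voom each called 0, against 0.0% and 0.106% of all genes. At an unadjusted p under 0.05 they counted 6 and 8 genes, against 6.68% and 7.92% of all genes. The 6 were 5.26% of the genes tested. There were 42 higher and 72 lower means (36.8% higher, against 52.2% of all tested genes). With the GC and length trend removed 53 of the 114 were higher, against 51.1% of all tested genes. Among APC/C subunits and regulators, 11 of 17 tested were higher, with a median of 0.07. With the GC and length trend removed 14 of the 17 were higher, with a median of 0.08. CDC26, a small subunit of the complex, stood at 14.4 and 13.6 FPKM in shNME7, against 10.2 FPKM in both shCtrl libraries (difference 0.42, limma-trend adjusted p 0.728), and FBXO5, its inhibitor EMI1, at 7.26 and 6.30 FPKM against 8.001 and 8.57 FPKM (-0.26). Of the remaining kinetochore and centromere genes 12 of 29 were higher, with a median of -0.03. CENPT stood at 7.34 and 7.95 FPKM in shNME7, against 5.53 and 5.33 FPKM in shCtrl (0.43, limma-trend adjusted p 0.728), and CENPW, which binds it, at 23.2 and 27.8 FPKM against 20.9 and 17.2 FPKM (0.40).

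Condensin, cohesin and separase genes had 3 of 19 higher means, against 52.2% of all tested genes, and a median of -0.16. With the GC and length trend removed 5 of the 19 were higher, with a median of -0.10. PTTG1, the securin that holds separase inactive, stood at 60.8 and 55.02 FPKM in shNME7, against 43.7 and 46.0 FPKM in shCtrl (0.36, limma-trend adjusted p 0.730). The cohesin subunit gene STAG2 stood at 30.01 and 24.9 FPKM in shNME7, against 32.3 and 38.2 FPKM in shCtrl (-0.35, limma-trend adjusted p 0.787). For PTTG1 and STAG2 the groups did not overlap, as for 36.2% of all genes, and neither passed. Of the other kinesins and spindle genes 7 of 21 were higher (median -0.06). KIF18A, which damps chromosome oscillations, stood at 4.96 and 3.71 FPKM in shNME7, against 5.56 and 6.55 FPKM in shCtrl (-0.41), and the chromokinesin gene KIF4A at 13.7 and 11.8 FPKM against 14.2 and 18.0 FPKM (-0.31).

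Of the transcription regulators of mitotic genes 3 of 14 tested were higher, against 52.2% of all tested genes, with a median of -0.06. With the GC and length trend removed 7 of the 14 were higher and the median was -0.01. LIN54, the MuvB subunit that contacts the CHR element, stood at 4.27 and 3.48 FPKM in shNME7, against 5.42 and 5.80 FPKM in shCtrl (-0.44, limma-trend adjusted p 0.728). E2F4, the E2F of the DREAM complex, stood at 17.3 and 19.3 FPKM in shNME7, against 16.1 and 13.5 FPKM in shCtrl (0.29). FOXM1, outside the rule for named genes and chosen after its values were seen, stood at 21.5 and 22.3 FPKM in shNME7, against 26.5 and 26.7 FPKM in shCtrl (-0.27, limma-trend adjusted p 0.795). These 3 genes passed neither test. Mitotic entry genes had 6 of 14 higher means (median -0.00), with the CDK1-binding protein gene CKS1B at 62.9 and 64.5 FPKM in shNME7, against 53.0 and 47.8 FPKM in shCtrl (0.33), and WEE1, the inhibitory kinase of CDK1, at 8.33 and 7.35 FPKM against 9.72 and 9.52 FPKM (-0.27). As a comparison from outside mitosis, 3 of 14 tested G1 cyclin, CDK and inhibitor genes were higher (median -0.10). With the GC and length trend removed it was again 3 of 14, with a median of -0.13. RB1 stood at 8.32 and 7.14 FPKM in shNME7, against 10.2 and 11.0 FPKM in shCtrl (-0.42), and CCND1 at 16.9 and 19.9 FPKM against 21.0 and 24.6 FPKM (-0.29). Neither passed.

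**Figure D5:**
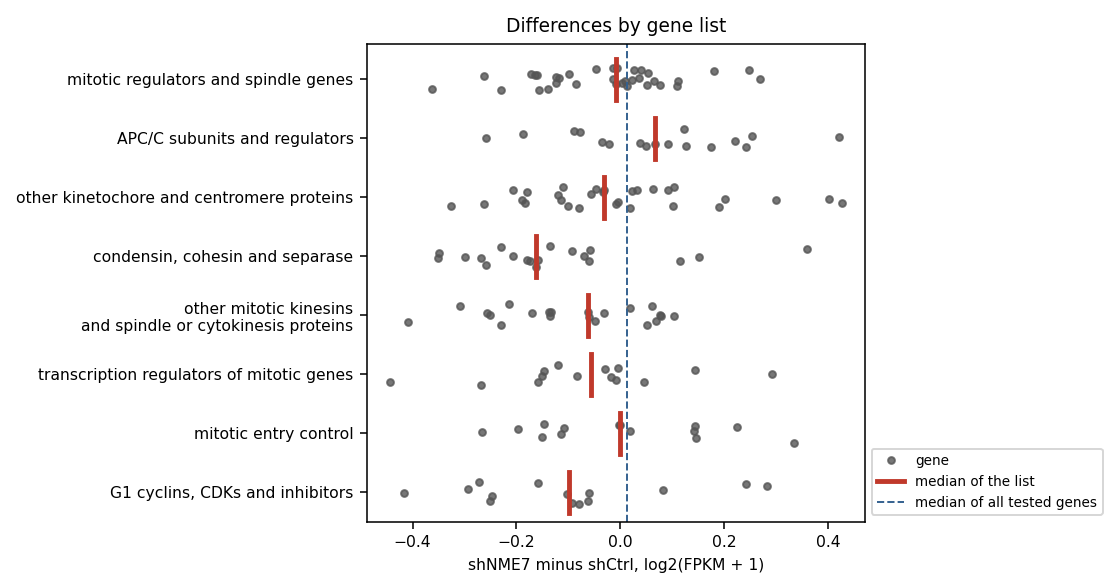
Log2 difference, shNME7 minus shCtrl on log2(FPKM + 1), of each tested gene (grey points, spread vertically at random) in the mitotic genes described here and 7 further lists, with each list's median (red bar) and the median of all tested genes (dashed line, 0.01). The list medians lie between -0.16 (condensin, cohesin and separase) and 0.07 (APC/C subunits and regulators), and no gene shown passed the test.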

How the data were processed

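Each library came as a gene table whose values the authors had scaled to FPKM, per the file headers. The submitters' processing notes list HISAT2 2.0.5 and the build hg18; the counting tool, annotation and strand setting are not named in the sources used here. All 58735 IDs occur in GENCODE release 29 on GRCh38, which gave names, exon lengths and coordinates. FPKM times exon length gave whole fragments within 0.01 for 100% of genes above 0, and these recovered fragments are what limma-voom used, for genes with a mean of at least 10.

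limma 3.58.1 in R 4.3.3 fitted log2(FPKM + 1) with a group term for 12866 genes with a mean of at least 1 FPKM. No batch is labelled. The loess trend used a span of 0.3 on GC content of the longest transcript and log2 exon length. Same-numbered replicates are not labelled as paired.

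All members are named; values per library are given for CDK1, CCNB1, MKI67 and up to 3 members per role with the largest absolute difference, and from other lists for the 2 largest with at least 5 FPKM in the higher group. KIF20A, DLGAP5, BUB1B and BUB3 are given as differences; CENPA, NUF2 and PRC1 are added after their values were seen. Members and lists were chosen with earlier results of these data known. The floor of 3 fragments covers counting error only. Alternatives were a smaller pseudocount, no filter on low values, TPM scaling, limma-voom, trend removal, a replicate block and leaving out each library.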

Additional observations from a re-analysis of the deposited data

How the results depend on the processing

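In all settings run, 0 of the mitotic genes and 0 of the genes of the other mitotic lists passed, the smallest adjusted p of a member being 0.141. The count over all genes, 0 in limma-trend, was 122 with the replicate block, 0 with the block after removal of the GC and length trend, 16 in limma-voom, 1 after removal of that trend alone, 12 in limma-voom after that removal, and 112 to 632 leaving out a library. In limma-voom it was 430 without shNME7 1, 41 without shNME7 2, 39 without shCtrl 1 and 28 without shCtrl 2. Whether same-numbered replicates were paired is not labelled and was not tested. Deviations of same-numbered libraries correlated at -0.35 across genes, which cannot decide it because the deviations also went with GC content. The crossed pairing called 0 genes. That pairing, the block with trend removal and limma-voom without a library were chosen after seeing the data. The cause of these shifts was not tested. NME7 passed at -1.47 with the replicate block, -2.39 in limma-voom, -2.24 in limma-voom after trend removal, and -1.56 to -1.38 leaving out a library. With the block after trend removal it did not pass (-1.36, limma-trend adjusted p 0.313). In limma-voom it was -2.59 without shNME7 1, -2.17 without shNME7 2, -2.44 without shCtrl 1 and -2.33 without shCtrl 2. A fit without a library leaves a group with 1, assumed to vary like the other group. Under TPM scaling 9 members had a higher mean, with CCNB2 at -0.037, CDK1 at -0.042, CDCA8 at -0.024, BUB1B at -0.026, BUB3 at -0.014, NUF2 at -0.011 and DLGAP5 at -0.048. The trend's removal, with or without the replicate block, turned INCENP to -0.064, CDCA8 to -0.049 and TOP2A to 0.0036, and in limma-voom INCENP to -0.099, CDCA8 to -0.047, TOP2A to 0.029 and KIF20A to 0.00059. Of 34 members 12 kept their sign in all 13 alternatives, with ranges of AURKB 0.047 to 0.29, CCNB1 0.0026 to 0.078, CDC20 0.078 to 0.38, CENPA -0.26 to -0.056, CENPE -0.27 to -0.021, CENPF -0.31 to -0.014, KIF23 -0.26 to -0.079, MKI67 -0.45 to -0.012, NDC80 -0.42 to -0.10, NUSAP1 0.016 to 0.11, TPX2 -0.51 to -0.21 and UBE2C 0.16 to 0.38. Leaving out a library, the ranges of the other 22 were AURKA -0.060 to 0.031, BIRC5 -0.0066 to 0.23, BUB1 -0.25 to 0.0025, BUB1B -0.16 to 0.21, BUB3 -0.074 to 0.14, CCNA2 -0.095 to 0.0015, CCNB2 -0.032 to 0.059, CDC25B -0.039 to 0.025, CDC25C -0.31 to 0.14, CDCA8 -0.051 to 0.10, CDK1 -0.095 to 0.11, DLGAP5 -0.13 to 0.14, ECT2 -0.29 to 0.011, INCENP -0.058 to 0.16, KIF11 -0.27 to 0.026, KIF20A -0.082 to 0.065, KIF2C -0.047 to 0.021, MAD2L1 -0.027 to 0.25, NUF2 -0.22 to 0.29, PLK1 -0.29 to 0.054, TOP2A -0.25 to 0.051, TTK -0.089 to 0.24. The 13 alternatives are not as many separate checks. The replicate block, the crossed pairing and the unfiltered fit repeat the differences of the main fit. The block with trend removal repeats those of trend removal alone. Leaving out a library cannot turn the sign of CCNB1, CDC20, AURKB, UBE2C, KIF23, CENPA or TPX2, whose groups do not overlap. Having 2 libraries a group limits the precision, and power was not estimated.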

Other observations

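Pseudogenes named after the mitotic genes held few fragments. By symbol, 12 such pseudogenes of 8 members were found in GENCODE. Of these 6 were at 0 in all 4 libraries, and the highest count in any library was 12 fragments. Copies listed under other names were not searched.

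Within a library, the ratio of CDC20 to CCNB1 was 0.963 and 1.18 in shNME7 1 and 2, against 1.01 and 0.852 in shCtrl 1 and 2, and overlapped between the groups. The ratio of NDC80 to its partner NUF2 was 0.664 and 0.759 in shNME7, against 0.811 and 0.972 in shCtrl, with both shNME7 libraries below. UBE2C over CDC20 was 0.807 and 0.644 in shNME7, against 0.714 and 0.703 in shCtrl. These ratios of levels per length were chosen after values were seen and were not tested.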
